A study of Mus musculus with 96 samples.

Results

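Expression of 10 genes of glucose production and the fasting response was followed in the livers of mice given PB by dose, sex and day. The genes were taken from a list by name, not by any measured value: Pck1, G6pc, Fbp1, Igfbp1, Tat, Ppargc1a, Foxo1, Irs2, Pcx and Sik1. Earlier results of these data were known when they were chosen. All 10 were measured, among 18193 genes in all. Each gene is read through the probe set (the group of array probes that reports it) with the highest mean over the 96 arrays.

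In fasting, the liver makes glucose from lactate, amino acids and glycerol. Glucagon, through cAMP, and glucocorticoids switch on the genes of this pathway, and insulin switches them off by driving the transcription factor FoxO1 out of the nucleus. CAR (constitutive androstane receptor, gene Nr1i3) is a nuclear receptor of the liver that answers to drugs, and its activation is known to repress gluconeogenesis.

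Liver RNA of CD-1 mice, an outbred stock, was measured on 96 biotin-labelled expression arrays. The labels write only PB, the usual short form of phenobarbital, a drug that activates CAR; it was given in the diet, and neither the age of the mice nor any engineered allele is labelled. Each sex had a dose of 0 and 5 doses in mg/kg-day, namely 0.15, then 1.5 and 15, and the high doses of 75 and 150, and livers were taken on day 2 or day 7, which gives 24 groups of 4 arrays. This unit comes from the design text; the titles give the doses in ppm, and which of these holds was not settled here. The labels do not say that the 4 arrays of a group come from separate mice, so all p-values measure the spread between these samples, which may be technical. In such whole-tissue samples, fewer cells of a type and less RNA per cell cannot be told apart.

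The arrays were checked against their labels before the genes were read. Xist, expressed from the inactive X chromosome of females, lay between 12.003 and 12.50 on the 48 female arrays and between 4.63 and 5.89 on the 48 male arrays (log2 expression). Alb, which encodes albumin of the hepatocyte, lay between 14.70 and 14.90 on all 96 arrays. Cyp2b10, the classic target of CAR, lay between 6.41 and 9.31 on the 16 arrays at dose 0 and between 13.36 and 13.70 on the 16 arrays at 150 mg/kg-day. A pair of arrays went against their labels: among males of day 2, the library labelled 15 mg/kg-day replicate 1 had 13.66 for Cyp2b10 where its 3 fellows had 11.07 to 11.29, and the library labelled 75 mg/kg-day replicate 1 had 10.98 where its fellows had 13.19 to 13.36. They were kept under their labels, and calls of a dose change or trend that rest on these groups are given with and without the pair. All correlations below include the pair and were not repeated without it.

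The stretches of 250 bases before the start sites of 6 of the genes are shown for the short motifs through which insulin and cAMP are known to act on such genes. Of the 10 genes, 9 had an entry in the RefSeq promoter table (build GRCm38.p6). Searched on both strands were CAAAACA (core of the insulin response element, present in 5.6% of all 32536 windows of this length), GTAAACA (forkhead core, 3.17%) and ACGTCA (core of the cAMP response element, 6.5%), which share no bases where they were found. Matches to these are in capitals, and each stretch runs 5′ to 3′ on the gene's strand. G6pc lies on the plus strand (chr11:101367466-101367715), Igfbp1 on the plus strand (chr11:7197537-7197786), Irs2 on the minus strand (chr8:11008930-11009179), Pck1 on the plus strand (chr2:173152823-173153072), Ppargc1a on the minus strand (chr5:51567726-51567975) and Fbp1 on the minus strand (chr13:62888283-62888532).
G6pc: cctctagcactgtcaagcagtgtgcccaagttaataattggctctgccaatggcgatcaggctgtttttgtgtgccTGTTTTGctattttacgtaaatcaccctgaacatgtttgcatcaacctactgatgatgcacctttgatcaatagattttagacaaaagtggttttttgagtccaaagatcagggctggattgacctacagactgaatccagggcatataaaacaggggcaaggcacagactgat
Igfbp1: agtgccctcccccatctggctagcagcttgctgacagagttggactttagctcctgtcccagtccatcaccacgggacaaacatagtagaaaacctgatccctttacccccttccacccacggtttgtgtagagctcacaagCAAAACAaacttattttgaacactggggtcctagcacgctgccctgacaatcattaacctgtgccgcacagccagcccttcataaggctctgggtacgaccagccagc
Irs2: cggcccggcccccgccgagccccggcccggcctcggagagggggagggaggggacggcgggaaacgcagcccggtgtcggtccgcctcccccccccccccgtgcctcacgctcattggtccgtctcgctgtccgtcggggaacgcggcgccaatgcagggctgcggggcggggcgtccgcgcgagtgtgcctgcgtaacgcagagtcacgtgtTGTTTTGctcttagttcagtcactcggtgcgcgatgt
Pck1: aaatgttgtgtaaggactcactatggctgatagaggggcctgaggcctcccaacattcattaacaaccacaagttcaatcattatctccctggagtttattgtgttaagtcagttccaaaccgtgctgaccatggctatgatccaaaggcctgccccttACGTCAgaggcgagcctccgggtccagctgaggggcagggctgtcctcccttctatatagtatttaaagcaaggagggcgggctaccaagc
Ppargc1a: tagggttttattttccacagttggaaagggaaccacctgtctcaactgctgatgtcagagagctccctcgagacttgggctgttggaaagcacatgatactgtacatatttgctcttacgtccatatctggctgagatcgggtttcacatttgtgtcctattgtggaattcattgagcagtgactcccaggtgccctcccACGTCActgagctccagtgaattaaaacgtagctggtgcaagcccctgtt
Fbp1: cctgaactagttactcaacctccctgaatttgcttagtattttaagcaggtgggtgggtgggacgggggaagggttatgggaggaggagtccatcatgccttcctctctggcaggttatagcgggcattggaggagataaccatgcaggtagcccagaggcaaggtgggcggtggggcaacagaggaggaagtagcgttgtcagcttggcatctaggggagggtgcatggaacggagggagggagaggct
The insulin response core stood in G6pc from base -174 to -168 of the start site, in Igfbp1 from -108 to -102 and in Irs2 from -37 to -31. The cAMP response element core stood in Pck1 from -91 to -86 and in Ppargc1a from -50 to -45. Fbp1, Tat, Foxo1 and Pcx held none of these letters in the window, and the forkhead core was in none of the windows of the 9 genes. Also searched was AGAACA, part of the glucocorticoid response element (16% of all windows), which no window of the 9 genes held. TATAAA (12.3%) stood in G6pc from -29 to -24. A match of letters is a description of the window and not a site shown to be bound.

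At 150 mg/kg-day, averaged over both sexes and both days, 6 of the 10 genes fell and none rose, where 9.42% of all 18193 genes fell and 8.27% rose. Igfbp1 fell by 0.97 ± 0.34 on the log2 scale (SE), or 1.96-fold, and G6pc by 0.61 ± 0.15, or 1.53-fold. The other 4 fell by less: Pck1 by 0.28 ± 0.091, Foxo1 by 0.22 ± 0.064, Fbp1 by 0.19 ± 0.028 and Pcx by 0.18 ± 0.043. The median over the 10 genes was -0.23, against -0.01 over all genes tested. The call is an adjusted p under 0.05 in limma, with Benjamini-Hochberg adjustment over all genes; the adjusted p was 4.52e-08 for Fbp1, 0.00102 for Pcx, 0.0015 for G6pc, 0.00883 for Foxo1, 0.0236 for Pck1 and 0.0344 for Igfbp1. Of the 4 genes not called, Irs2 changed by -0.33 ± 0.16 (adjusted p = 0.165), Ppargc1a by -0.24 ± 0.17 (0.361), Tat by -0.05 ± 0.10 (0.816) and Sik1 by 0.45 ± 0.17 (0.0546). The plot of each gene's change at 150 mg/kg-day shows these averages beside the 4 combinations of sex and day.

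Single arrays decided part of these calls. Pck1 was not called without male replicate 1 at 150 mg/kg-day on day 2 or without male replicate 3 at 150 mg/kg-day on day 7, with an adjusted p of at most 0.0621. The call of Igfbp1 was lost in 13 of the 32 settings that leave out 1 array, with an adjusted p of at most 0.0794 and a change between -1.10 and -0.84. At dose 0 these arrays were replicates 1 and 4 of day 2 and replicate 1 of day 7 in females, and replicates 2 and 3 of day 2 and replicate 1 of day 7 in males. At 150 mg/kg-day they were replicates 3 and 4 of day 2 and replicate 2 of day 7 in females, and replicates 3 and 4 of both days in males. Sik1, at an adjusted p of 0.0546, was called higher in 7 of the 32, with the adjusted p between 0.0339 and 0.106 over all of them. Those left out were female replicate 4 at dose 0 of day 2, 3 at dose 0 of day 7, 4 at 150 mg/kg-day of day 2 and 3 at 150 mg/kg-day of day 7, and male replicate 1 at dose 0 of day 7, 2 at 150 mg/kg-day of day 2 and 3 at 150 mg/kg-day of day 7. Irs2 was called lower without male replicate 4 at dose 0 of day 7 (adjusted p = 0.0401).

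**Figure D1:**
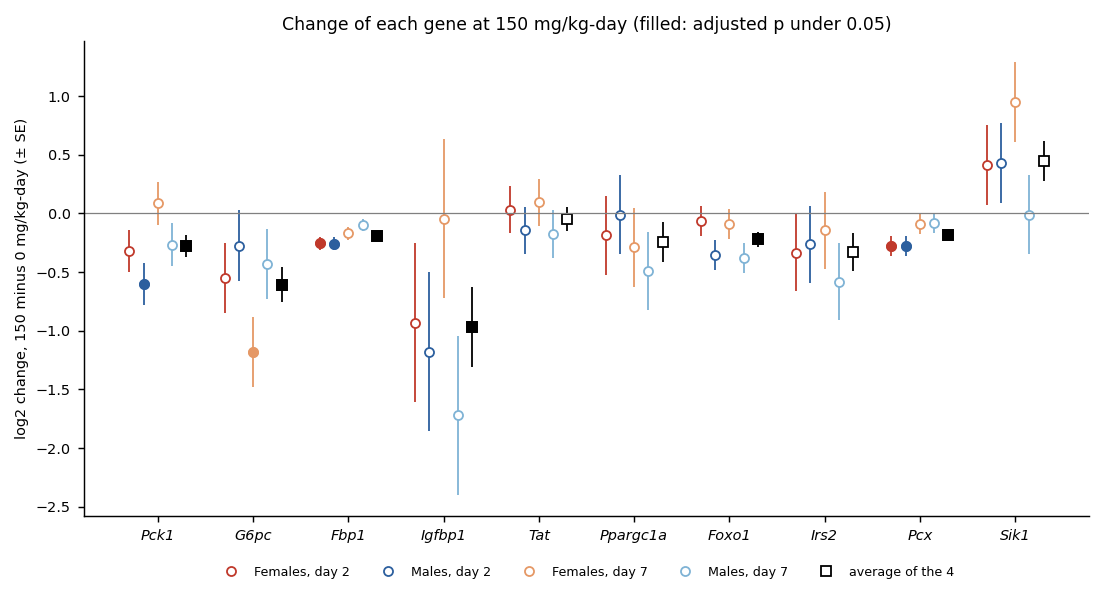
Change of each of the 10 genes at 150 against 0 mg/kg-day (log2, with SE) in the 4 combinations of sex and day (circles) and their average (black squares); filled symbols have an adjusted p under 0.05. Of the averages, 6 are filled and all of these lie below 0, from -0.97 for Igfbp1 to -0.18 for Pcx.

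Pck1 encodes cytosolic phosphoenolpyruvate carboxykinase, which makes phosphoenolpyruvate from oxaloacetate at the entry to gluconeogenesis. In males of day 2, the 4 arrays at dose 0 had 12.82, 12.94, 13.04 and 12.86 (log2 expression) and those at 150 mg/kg-day had 11.98, 12.40, 12.65 and 12.23. All 4 treated arrays lay below all 4 untreated ones. Pck1 fell there by 0.60 ± 0.18 on the log2 scale (SE), or 1.52-fold, with an adjusted p of 0.0349. In this comparison 3 of the 10 genes fell and none rose, where 2.4% of all genes fell and 2.5% rose; 4 of the 10 had all treated arrays below the untreated ones, where 5.99% of all genes did. The Pck1 call was lost in 7 of the 8 settings that leave out 1 of the 8 arrays, each array but replicate 3 at 150 mg/kg-day, where the adjusted p reached 0.173. Females of day 7 had 12.996, 12.95, 13.10 and 13.09 at dose 0 and 13.05, 12.99, 13.21 and 13.24 at 150 mg/kg-day, which overlap. The change there was 0.09 ± 0.18 (adjusted p = 0.904), that in females of day 2 was -0.32 ± 0.18 (0.399) and that in males of day 7 was -0.27 ± 0.18 (0.535). On day 7 in males, 1 array stood low at each of these doses: 12.41 at dose 0, 11.66 at 75 and 12.12 at 150 mg/kg-day, where the other 9 arrays lay between 12.71 and 13.12.

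Fbp1 encodes fructose-1,6-bisphosphatase, which turns fructose 1,6-bisphosphate into fructose 6-phosphate. Females of day 2 had 14.06, 14.05, 14.00 and 13.99 at dose 0, 13.98, 13.88, 13.84 and 13.81 at 75 mg/kg-day, and 13.74, 13.63, 13.83 and 13.88 at 150 mg/kg-day. Males of day 2 had 13.95, 13.96, 14.01 and 13.91 at dose 0 and 13.74, 13.76, 13.69 and 13.61 at 150 mg/kg-day. In both sexes all arrays at 150 lay below all arrays at dose 0. Fbp1 fell by 0.26 ± 0.055 (SE) in females (adjusted p = 0.000816) and by 0.26 ± 0.055 in males (adjusted p = 0.000995), about 1.19- and 1.2-fold. In females of day 2, 2 of the 10 genes fell and none rose, where 2.14% of all genes fell and 3.32% rose; Fbp1 alone of the 10 had all arrays at 150 below those at dose 0, where 5.61% of all genes did. On day 7 females had 13.99, 14.11, 14.17 and 14.19 at dose 0 and 13.97, 13.93, 13.91 and 13.98 at 150 mg/kg-day, again without overlap, at a change of -0.17 ± 0.055 that was not called (adjusted p = 0.0917). Without female replicate 1 at dose 0 of day 7 it was called (adjusted p = 0.0465). The male change on day 7 was -0.10 ± 0.055 (adjusted p = 0.412), and the arrays overlapped. Fbp1 read close to the highest value of any probe set on these arrays, 14.86 to 14.97; whether its differences are compressed there was not tested.

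G6pc encodes the catalytic subunit of glucose-6-phosphatase, the last step before glucose leaves the cell. In females of day 7, the arrays had 11.15, 11.16, 11.18 and 11.41 at dose 0, 10.23, 10.48, 10.29 and 10.91 at 75 mg/kg-day, and 9.76, 9.90, 10.35 and 10.15 at 150 mg/kg-day. Both treated groups lay wholly below the untreated one. G6pc fell by 1.18 ± 0.30 (SE) at 150 mg/kg-day, or 2.27-fold (adjusted p = 0.0134), and was the 1 gene of the 10 called in that comparison, where 0.923% of all genes fell and 1.52% rose. The call was lost without female replicate 1 at 150 mg/kg-day of day 7 (adjusted p = 0.0535). At 75 mg/kg-day the change was -0.74 ± 0.30 (adjusted p = 0.257), and 3.4% of all genes had such a separation downward and 2.92% upward. The other groups overlapped with their untreated arrays: the change at 150 mg/kg-day was -0.55 ± 0.30 in females of day 2 (adjusted p = 0.366), -0.27 ± 0.30 in males of day 2 (0.744) and -0.43 ± 0.30 in males of day 7 (0.548).

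Pcx encodes pyruvate carboxylase, the mitochondrial enzyme that makes oxaloacetate from pyruvate. Males of day 2 had 11.82, 11.60, 11.80 and 11.65 at dose 0 and 11.31, 11.41, 11.55 and 11.48 at 150 mg/kg-day, without overlap. Females of day 2 had 11.83, 11.70, 11.84 and 11.84 at dose 0 and 11.35, 11.40, 11.56 and 11.79 at 150 mg/kg-day, where 1 treated array lay among the untreated ones. It fell by 0.28 ± 0.085 (SE) in both sexes, with an adjusted p of 0.0393 in males and 0.0365 in females. In each sex the call was lost in 5 of the 8 settings that leave out 1 array: replicates 1, 3 and 4 at dose 0 and 1 and 2 at 150 mg/kg-day in females (adjusted p up to 0.219), and replicates 1 and 3 at dose 0 and 1, 2 and 4 at 150 mg/kg-day in males (up to 0.163). On day 7 the change was -0.09 ± 0.085 in females (adjusted p = 0.737) and -0.08 ± 0.085 in males (0.755).

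**Figure D2:**
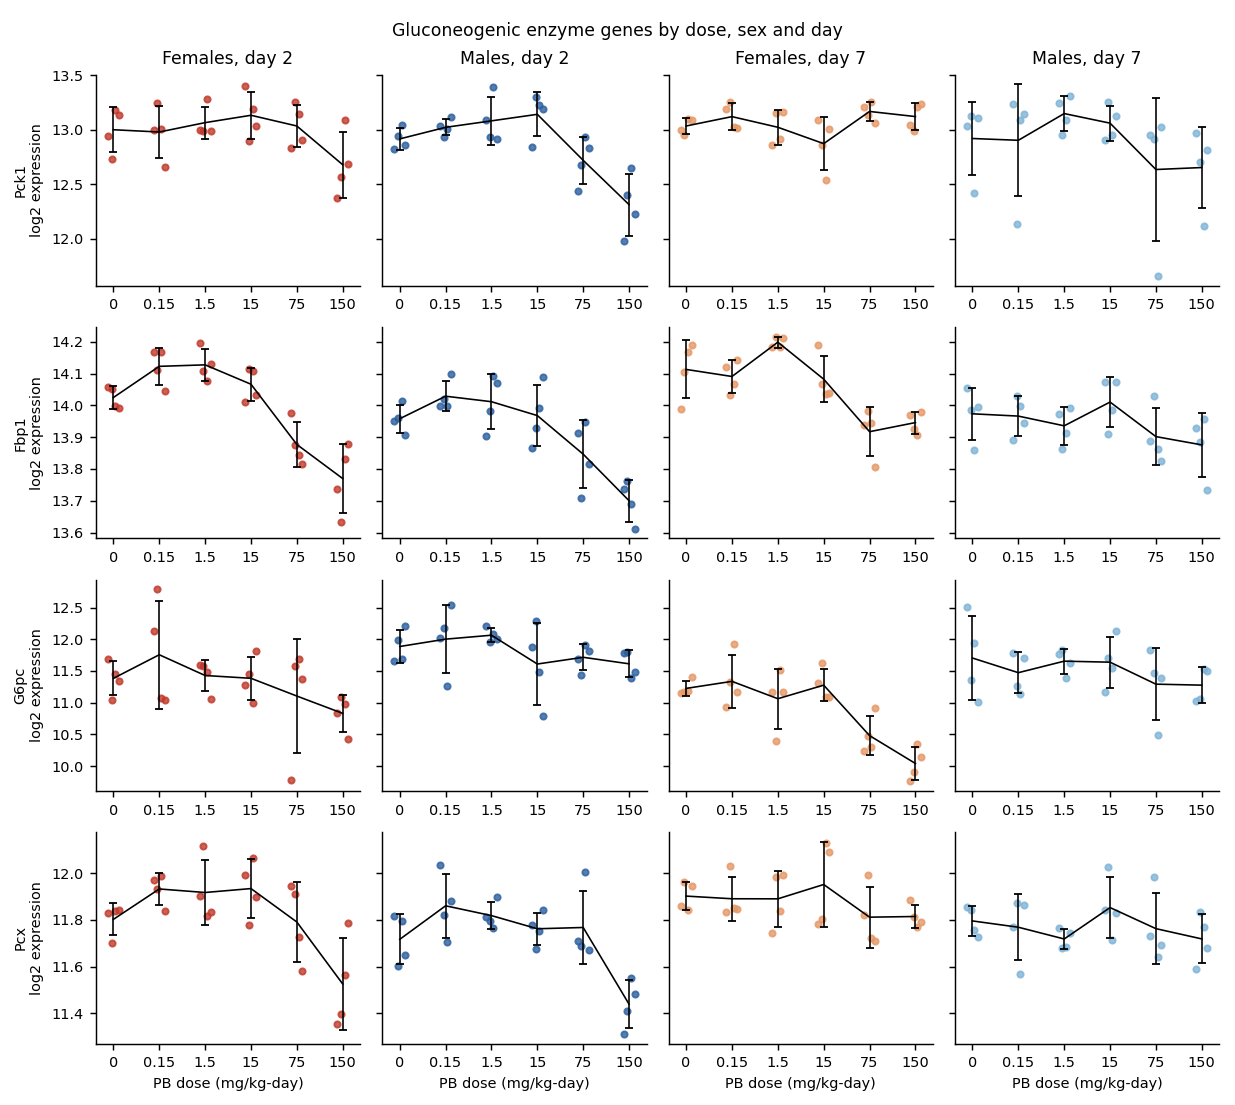
Log2 expression of the 4 gluconeogenic enzyme genes against PB dose (mg/kg-day, equally spaced), 1 column per sex and day; points are arrays, lines join group means, and bars are the SD of 4 arrays. Fbp1 lies lowest at 150 mg/kg-day on day 2 in both sexes, with means of 13.77 and 13.70, and G6pc in females of day 7, with a mean of 10.04.

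Igfbp1 encodes a binding protein for insulin-like growth factors that the liver secretes in fasting and that insulin represses. Its arrays spread widely within every group, with a pooled SD of 0.99 on the log2 scale within the 24 groups. In males of day 7 it read 11.63, 9.75, 10.63 and 9.61 at dose 0, 9.76, 9.68, 7.06 and 9.13 at 75 mg/kg-day, and 9.66, 8.78, 8.20 and 8.11 at 150 mg/kg-day. The highest array at 150 lay just above the lowest at dose 0, so the groups overlapped. The change at 150 mg/kg-day was -1.72 ± 0.68 (SE), 3.29-fold lower, with an unadjusted p of 0.0132 and an adjusted p of 0.167. It was -1.18 ± 0.68 in males of day 2 (adjusted p = 0.404), in females of day 2 it was -0.93 ± 0.68 (0.556), and in females of day 7 it was -0.05 ± 0.68 (0.99). No single combination of sex and day was called.

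Irs2 encodes an adaptor of the insulin receptor whose own transcription rises in fasting. In males of day 7 it read 8.21, 7.61, 7.55 and 6.07 at dose 0 and 6.92, 6.60, 7.16 and 6.43 at 150 mg/kg-day, where 1 untreated array lay below all treated ones. The change was -0.58 ± 0.33 (adjusted p = 0.412). It was -0.33 ± 0.33 in females of day 2 (adjusted p = 0.701), -0.26 ± 0.33 in males of day 2 (0.784) and -0.14 ± 0.33 in females of day 7 (0.911), so that all 4 values lay below 0 and none was called.

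Foxo1 encodes the transcription factor that insulin inactivates. Males of day 7 had 9.28, 9.14, 9.14 and 9.23 at dose 0 and 8.81, 8.97, 8.80 and 8.68 at 150 mg/kg-day. Males of day 2 had 9.10, 8.94, 9.42 and 8.95 at dose 0 and 8.51, 8.74, 8.84 and 8.91 at 150 mg/kg-day. In males of both days all treated arrays lay below all untreated ones, at changes of -0.38 ± 0.13 (SE; adjusted p = 0.0916) on day 7 and -0.35 ± 0.13 (adjusted p = 0.105) on day 2, neither called. In males of day 7, none of the 10 genes was called by limma, 2 had an unadjusted p under 0.05 (14.9% of all genes had), where 0.835% of all genes fell and 2.2% rose by the adjusted p. All 10 changes lay below 0, as did those of 49.2% of all genes, though that of Sik1 was -0.01 and lay above 0 with centred or quantile-normalized arrays; 1 of the 10 was without overlap and lower, against 2.89% of all genes. In females the change of Foxo1 was -0.06 ± 0.13 on day 2 (adjusted p = 0.884) and -0.09 ± 0.13 on day 7 (0.844), and the arrays overlapped.

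Ppargc1a encodes PGC-1α, the coactivator of gluconeogenic transcription, and Tat encodes tyrosine aminotransferase, the textbook liver enzyme induced by glucocorticoids. Neither was called in any of the comparisons with dose 0. At 150 mg/kg-day, Ppargc1a changed by -0.49 ± 0.34 (SE) in males of day 7, -0.29 ± 0.34 in females of day 7, -0.18 ± 0.34 in females of day 2 and -0.01 ± 0.34 in males of day 2, with adjusted p between 0.536 and 0.994. Over the 16 arrays at dose 0 it ran from 5.46 over a median of 7.24 to 8.38, and over the 16 at 150 mg/kg-day from 6.08 over 6.87 to 7.61. Tat changed by between -0.18 ± 0.20 in males of day 7 and 0.10 ± 0.20 in females of day 7. Its 16 arrays at dose 0 ran from 11.53 over a median of 12.44 to 12.99, and its 16 at 150 mg/kg-day from 11.88 over 12.36 to 12.94, almost the same range.

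Sik1 encodes a salt-inducible kinase that cAMP induces and that restrains the cAMP-driven program. In females of day 7 it read 5.80, 5.60, 6.14 and 5.85 at dose 0, 7.31, 6.37, 6.77 and 6.54 at 75 mg/kg-day, and 7.31, 6.77, 6.23 and 6.88 at 150 mg/kg-day. Both of these treated groups lay wholly above the untreated one, which is the reverse of G6pc on the same arrays. So did the 4 arrays at 0.15 mg/kg-day, where Sik1 was not called. Their mean of 6.84 was the highest of the 24 groups, and that at dose 0 of the same sex and day, 5.85, was the lowest. The height of Sik1 over the untreated arrays was thus not confined to the high doses. The change was 0.95 ± 0.34 (SE) at 150 mg/kg-day, with an unadjusted p of 0.00622 and an adjusted p of 0.132, and 0.90 ± 0.34 at 75 mg/kg-day (adjusted p = 0.213); both share the same 4 untreated arrays. Of all genes, 4.31% had all arrays at 150 above those at dose 0 and 4.34% all below, and of the 10 genes 1 (Sik1) and 2 (G6pc and Fbp1) did. At 150 mg/kg-day the change was 0.41 ± 0.34 in females of day 2, 0.43 ± 0.34 in males of day 2 and -0.01 ± 0.34 in males of day 7, with adjusted p between 0.601 and 0.995.

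**Figure D3:**
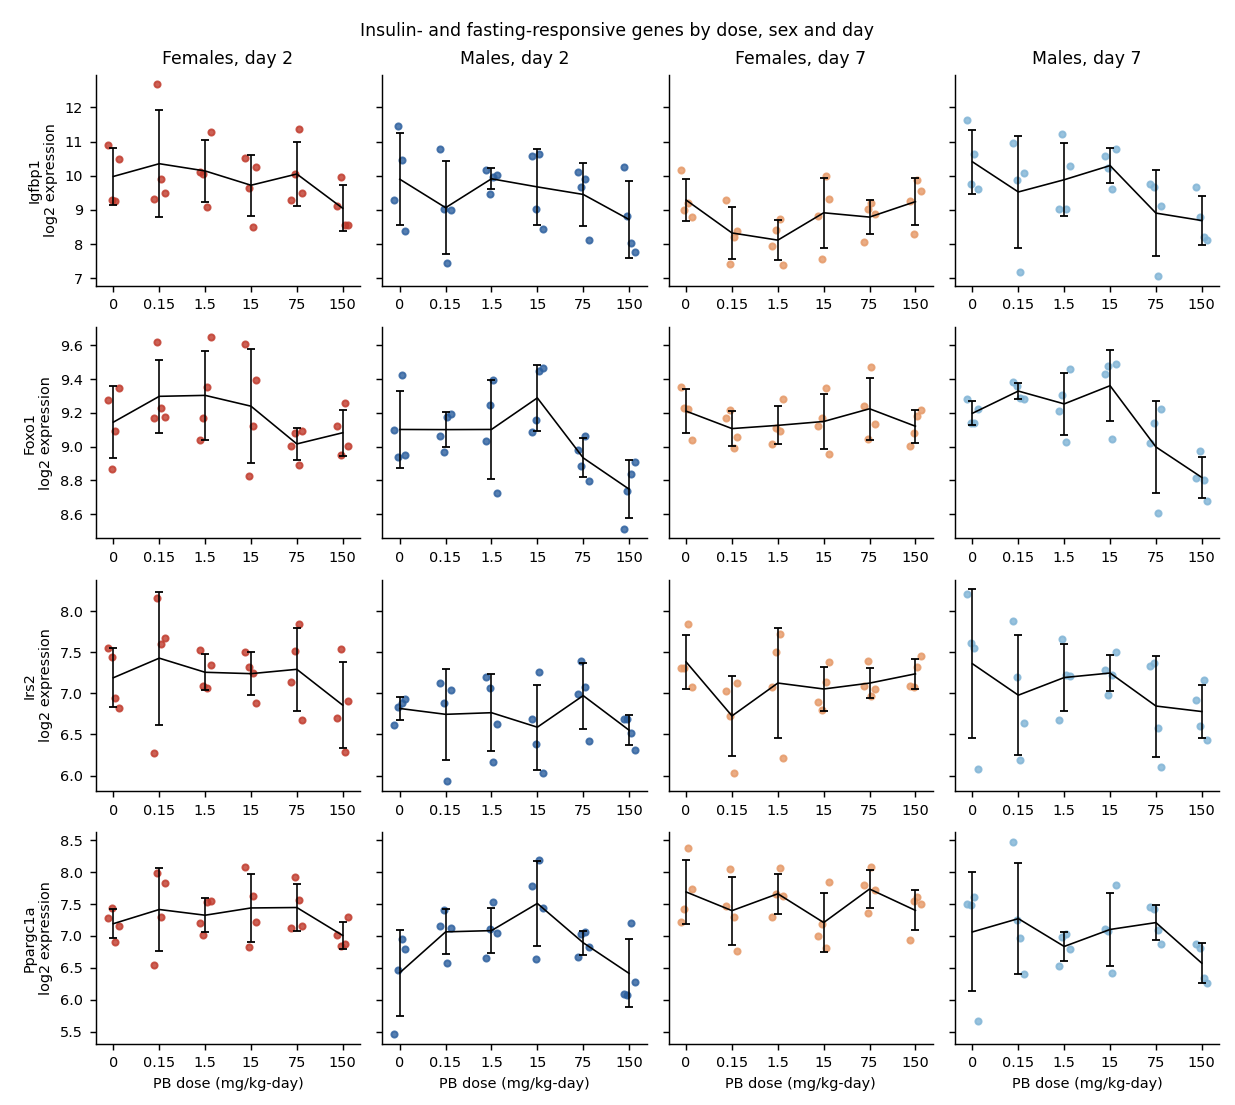
Log2 expression of Igfbp1, Foxo1, Irs2 and Ppargc1a against PB dose (mg/kg-day, equally spaced), 1 column per sex and day; points are arrays, lines join group means, and bars are the SD of 4 arrays. Foxo1 of males lies lowest at 150 mg/kg-day on both days, with means of 8.75 and 8.82, while the arrays of Igfbp1 spread from 7.06 to 12.68.

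The lower doses and trends over dose were read in the same way. They do not place the dose at which a change began, since a missing call does not show the absence of a change. A trend, too, can rest on the highest dose alone. At 0.15, 1.5 and 15 mg/kg-day none of the 10 genes was called in any of the 12 comparisons, where 0.00824% of all tests of all genes were called, with a smallest adjusted p of 0.541 for the 10 genes. In limma 3 of their 120 tests had an unadjusted p under 0.05, against 5.06% of all tests. These were Ppargc1a in males of day 2 at 15 mg/kg-day (1.09, or 0.998 without the library labelled replicate 1) and Sik1 and Irs2 in females of day 7 at 0.15 mg/kg-day. Some groups at these doses lay wholly apart from dose 0 without a call. Igfbp1 lay below in females of day 7 at 1.5 mg/kg-day, and Fbp1 above in females of day 2 at that dose. At 0.15 mg/kg-day, Foxo1 in males of day 7 and Sik1 in females of day 7 lay above. The share of all genes so separated at these doses was not counted. At 75 mg/kg-day limma called none in a single sex and day, where 0.475% of all tests were called, the smallest adjusted p being 0.064 for Fbp1 in females of day 7 (change of -0.20 ± 0.055). Averaged over both sexes and both days, Fbp1 fell at 75 mg/kg-day by 0.13 ± 0.028 (adjusted p = 0.000553), and by 0.14 ± 0.028 without the pair of arrays that went against their labels (adjusted p = 0.000393). It was the 1 gene of the 10 called in that average, where 3.56% of all genes fell and 5.36% rose. G6pc stood at -0.40 ± 0.15 (adjusted p = 0.0781, or 0.0915 without the pair), Igfbp1 at -0.59 ± 0.34 (0.291, or -0.65 and 0.259 without the pair) and Sik1 at 0.38 ± 0.17 (0.156, or 0.38 and 0.17). A second gene was called in that average without female replicate 3 at 75 mg/kg-day of day 2 and without male replicate 4 at dose 0 of day 7. Pck1, Pcx, Tat and Irs2 had changes between -0.13 and 0.00, Foxo1 one of -0.12 and Ppargc1a one of 0.23. Without the pair those of the first 4 lay between -0.13 and 0.01, that of Foxo1 at -0.12 and that of Ppargc1a at 0.25, none of them called.

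A straight line over the rank of the 6 doses was tested in the same fit, as the log2 change per step of dose. For females of day 2, Fbp1 fell by 0.059 ± 0.0093 per step (adjusted p = 1.56e-06) and Pcx by 0.051 ± 0.014 (0.0126), 2 of the 10 genes, where 4.19% of all genes fell and 4.54% rose. Among males of day 2, Pck1 fell by 0.11 ± 0.031 (0.0151), Fbp1 by 0.054 ± 0.0093 (1.94e-05) and Pcx by 0.049 ± 0.014 (0.0229), 3 of the 10, where 2.91% fell and 3.13% rose. Without the pair of arrays that went against their labels these 3 fell by 0.099 ± 0.031 (0.0365), 0.055 ± 0.0094 (1.82e-05) and 0.048 ± 0.015 (0.0361). Among females of day 7, G6pc fell by 0.24 ± 0.051 (0.00114) and Fbp1 by 0.042 ± 0.0093 (0.00178), 2 of the 10, where 1.99% fell and 2.36% rose. For males of day 7, Foxo1 fell by 0.080 ± 0.022 (0.017), 1 of the 10, where 1.39% fell and 3.07% rose. None of the genes rose with dose by this test. The trends reuse the arrays of the comparisons at 150 mg/kg-day and are not independent of them. Without male replicate 1 at 150 mg/kg-day of day 2 the trend of Pck1 was not called (adjusted p = 0.0753). That of Pcx in males was not called without this array, without replicate 1 at 0.15 mg/kg-day or without replicate 1 or 3 at dose 0 (up to 0.0882), and without female replicate 1 or 2 at that dose and day that of Pcx in females was not called (up to 0.0714).

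**Figure D4:**
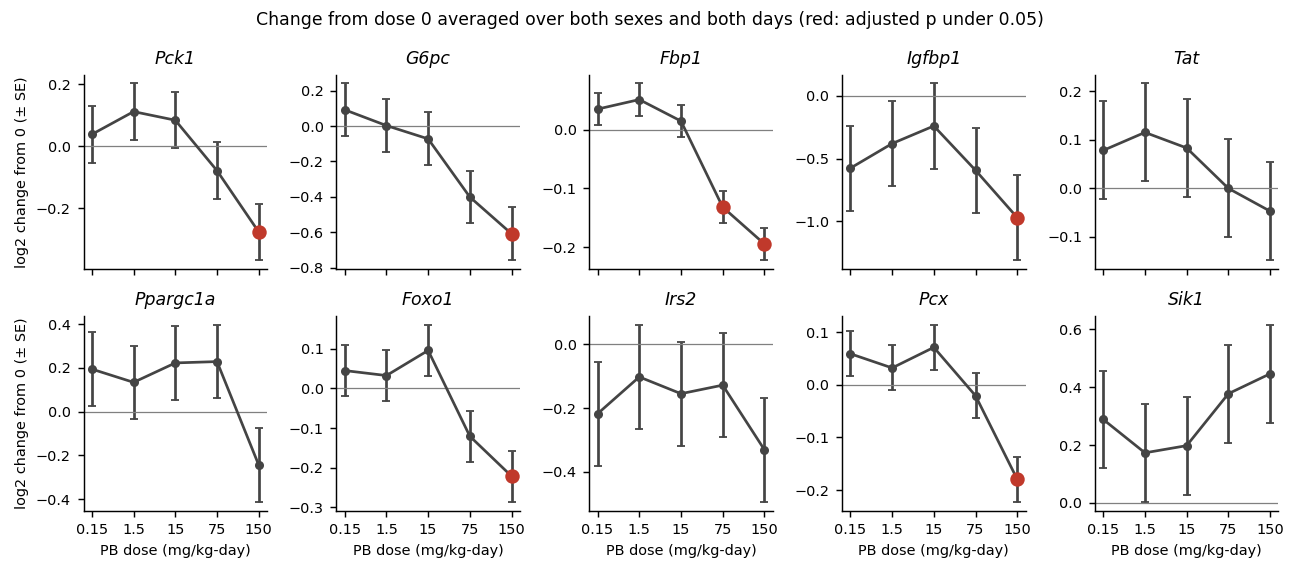
Log2 change from dose 0 (with SE), averaged over both sexes and both days, at the 5 doses of PB above 0, 1 panel per gene with its own axis; red points have an adjusted p under 0.05. The averages of Pck1, G6pc, Fbp1, Foxo1 and Pcx lie between -0.07 and 0.11 up to 15 mg/kg-day, and all 5 lie below 0 at 75 and 150 mg/kg-day. All arrays are included. Without the pair that went against their labels, the averages of these 5 at 15 mg/kg-day lie between -0.09 and 0.11. That of Igfbp1, not among these 5, lies at -0.24 at 15 mg/kg-day (-0.32 without the pair) and is not called.

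Whether the response differed between sexes or between days was tested directly. None of the 10 genes was called by limma for a difference between males and females in the change at 150 mg/kg-day on day 2 (0 of 10 at an unadjusted p under 0.05) or on day 7 (1 of 10, Sik1). Of all genes, 0.0055% and 0.0879% were called in these tests, and 3.58% and 4.63% had an unadjusted p under 0.05. On day 7 the male change minus the female change was 0.76 ± 0.42 for G6pc (95% interval -0.08 to 1.60), -1.67 ± 0.96 for Igfbp1 (-3.58 to 0.23) and -0.96 ± 0.48 for Sik1 (-1.91 to -0.01), each with an adjusted p of 0.997. Between the days, limma again called none, where 0.874% of all genes were called in females and 0.132% in males, and 8.16% and 9.35% had an unadjusted p under 0.05. Among the 10 genes none had one in females; Fbp1 in males had the 1 unadjusted p under 0.05, at a change on day 7 that was 0.16 ± 0.078 above that of day 2 (adjusted p = 0.509). For Pck1 the day 7 change minus the day 2 change was 0.41 ± 0.26 in females (-0.11 to 0.92) and 0.34 ± 0.26 in males (-0.18 to 0.85). The intervals are wide, so that the genes called on 1 day or in 1 sex are not shown to be particular to it.

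At dose 0 the 10 genes were not called between the sexes or between the days either. On day 2, Tat was 0.42 ± 0.20 higher in males (unadjusted p = 0.0416, adjusted p = 0.394), with all 4 male arrays above all 4 female arrays as in 3.25% of all genes, and Ppargc1a was 0.77 ± 0.34 lower in males (unadjusted p = 0.0245, adjusted p = 0.303). On day 7, Tat was 0.41 ± 0.20 higher (adjusted p = 0.248), Ppargc1a 0.63 ± 0.34 lower (0.3) and Fbp1 0.14 ± 0.055 lower in males (0.122). Between the sexes, 2.06% of all genes were called on day 2 and 6.71% on day 7. Between the days at dose 0, 0.0165% of all genes were called in females and 0% in males; limma called none of the 10 genes, and 0 of the 10 had an unadjusted p under 0.05 in either sex, where 7.94% of all genes had in each.

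Several of the genes have more than 1 probe set, and these did not all behave alike. Pck1 has 3, with means of 12.95 (the one used), 9.89 and 4.603 over all arrays. Among males of day 2 their changes at 150 mg/kg-day were -0.60, -0.57 and 0.13, and with adjustment over all probe sets the first was called (adjusted p = 0.0433). For females of day 7 they were 0.09, 0.06 and -0.73, none called. The dimmest Pck1 probe set thus went against the other 2 in both of these groups, while in the average at 150 mg/kg-day all 3 lay below 0, at -0.28, -0.31 and -0.38. Foxo1 has 4: in the average at 150 mg/kg-day, 3 fell, by 0.22, 0.30 and 0.27, and the dimmest changed by -0.02. Among males of day 7, where the brightest Foxo1 probe set was not called, 2 of the others fell by 0.47 (adjusted p = 0.00915) and 0.45 (0.0353). Ppargc1a has 5: in that average 3 of them fell, by 0.58, 0.49 and 0.33, while the 2 brightest changed by -0.24 and -0.21 and were not called. Among females of day 2, 1 of the 5 fell by 0.96 (adjusted p = 0.011), where the one used changed by -0.18. Sik1 has a second, dim probe set (mean of 3.02) that changed by 0.05 in the average.

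The array also carries 4 control probe sets for Pcx along its transcript, which were not among the genes tested. The one at the 3′ end, with a mean of 11.36, fell in the average at 150 mg/kg-day by 0.18 ± 0.039 (adjusted p = 0.000355), and on day 2 by 0.29 ± 0.079 in females and 0.27 ± 0.079 in males, close to the Pcx probe set used. The one at the 5′ end, with a mean of 7.01, rose by 0.14 ± 0.035 (adjusted p = 0.00241), and the 2 in the middle changed by 0.05 and -0.13 and were not called. Control probe sets of 1 transcript therefore went in opposite directions, and whether RNA length or quality has a part in this was not tested.

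Other genes of glucose and fasting metabolism were counted in 10 lists of 203 genes, 185 of them measured. They were chosen with earlier results of these data known, and counts refer to the average at 150 mg/kg-day. In that average 9.42% of all genes fell and 8.27% rose, the shares to set beside the count of each of these lists. Of 18 other gluconeogenic enzymes and carriers, 4 fell and 2 rose (median -0.01, as over all genes). Gpd1, the glycerol 3-phosphate dehydrogenase of the cytosol, fell by 0.41 ± 0.048 (SE). Ldha, a lactate dehydrogenase subunit, fell by 0.34 ± 0.053 and Slc25a13, a mitochondrial aspartate and glutamate carrier, by 0.24 ± 0.048, while Pgk1, a glycolytic kinase that also works in reverse, rose by 0.27 ± 0.040. Of 20 genes of amino acid breakdown and uptake, 9 fell and none rose (median -0.12). Oat, ornithine aminotransferase, fell by 0.81 ± 0.13 (1.75-fold), Glud1, glutamate dehydrogenase, by 0.28 ± 0.035, Hal, histidine ammonia lyase, by 0.25 ± 0.049, and Bhmt, which remethylates homocysteine, by 0.19 ± 0.027.

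Of 15 other genes that fasting induces in liver, 10 fell and none rose (median -0.34, against -0.01 over all genes). Angptl4, a secreted inhibitor of lipoprotein lipase, fell by 0.93 ± 0.17 (1.9-fold), Fgf21, a fasting hormone of the liver, by 0.69 ± 0.12 (1.61-fold), Cpt1a, which admits fatty acids to mitochondria, by 0.38 ± 0.075, and Plin2, a coat protein of lipid droplets, by 0.34 ± 0.062. Of 10 genes that feeding induces, 4 rose and none fell (median 0.19). Pnpla3, a lipase-like protein of lipid droplets, rose by 1.08 ± 0.21 (2.12-fold), Thrsp, a promoter of lipid synthesis, by 0.78 ± 0.18, Elovl6, a fatty acid elongase, by 0.69 ± 0.15 and Me1, malic enzyme, by 0.47 ± 0.10. Of 18 glycogen genes, 6 rose and 2 fell. Stbd1, a glycogen-binding protein, rose by 1.23 ± 0.11, Gbe1, the branching enzyme, by 0.52 ± 0.076 and Phkb, a phosphorylase kinase subunit, by 0.35 ± 0.066, and Ppp1r3c, which targets a phosphatase to glycogen, fell by 1.06 ± 0.18.

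Of 22 genes of insulin signalling, 5 fell and 1 rose (median -0.07); Foxo4, a relative of Foxo1, fell by 0.24 ± 0.044, Grb10, an adaptor that restrains the insulin receptor, by 0.28 ± 0.089 and Mtor, a growth kinase, by 0.16 ± 0.040, and Pik3cb, a catalytic subunit of PI 3-kinase, rose by 0.34 ± 0.056. Of 24 genes of glucagon and cAMP signalling, 7 fell and 2 rose (median -0.08), where 9.42% of all genes fell and 8.27% rose. Among them Prkaca, the catalytic subunit of protein kinase A, fell by 0.29 ± 0.047 and Prkar1a, a regulatory subunit, by 0.16 ± 0.039, and Pde3b, a phosphodiesterase that degrades cAMP, rose by 0.31 ± 0.044, as did Prkar2a by 0.23 ± 0.047. Of 16 genes of glucocorticoid action, 5 fell and none rose (median -0.11). Tsc22d3 and Klf9, both induced by glucocorticoids, fell by 0.53 ± 0.10 and 0.51 ± 0.096, Errfi1 by 0.31 ± 0.074, and Hsd11b1, which regenerates active glucocorticoid, by 0.16 ± 0.028. Of 21 transcriptional regulators of gluconeogenesis, 6 fell and 1 rose (median -0.11): Nr1i3, which encodes CAR itself, fell by 0.62 ± 0.10, Ppara, the fatty acid receptor of fasting, by 0.60 ± 0.080 and Foxa3, a forkhead factor, by 0.50 ± 0.10, and Kat2a, an acetyltransferase that acts on PGC-1α, rose by 0.34 ± 0.054. Of 21 genes of glycolysis and glucose uptake, 4 rose and 4 fell (median -0.01), among them the glucose transporters Slc2a1, which rose by 0.38 ± 0.069, and Slc2a2, which fell by 0.30 ± 0.056, Pdha1 of pyruvate dehydrogenase, which rose by 0.24 ± 0.049, and Gckr, the regulator of glucokinase, which fell by 0.18 ± 0.047. Leaving out 1 array moved the count that fell to between 3 and 7 for insulin signalling and between 2 and 5 for glycolysis, the 2 without female replicate 3 at 150 mg/kg-day of day 7.

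Markers of other cells moved with the same treatment. In the average at 150 mg/kg-day, where 9.42% of all genes fell and 8.27% rose, 5 of 10 endothelial markers fell, Stab2 by 0.47 ± 0.071 (3 to 6 when 1 array was left out). Of 8 stellate cell markers 4 fell, Lrat by 0.61 ± 0.12. Of 10 Kupffer cell markers 2 rose, Mpeg1 by 0.45 ± 0.15 and Cd5l by 0.39 ± 0.14 (0 to 2, with a change in 14 of the 32 settings that leave out 1 array). By sex and day, the Kupffer markers did not move alike. Among males of day 7, where Foxo1 fell with dose, 3 of the 10 rose, Mpeg1 by 1.28, Cd5l by 1.10 and Adgre1 by 0.77 (median 0.61 over the 10 markers). Of all genes, 2.2% rose in that comparison. Among males of day 2, where Pck1, Fbp1 and Pcx fell, 9 of the 10 lay below 0 and none was called (median -0.36; Marco at -0.67, Adgre1 at -0.39). None was called in females, with medians of -0.08 on day 2 and 0.38 on day 7. Of 6 neutrophil markers 1 rose, S100a8 by 2.52 ± 0.36. The others were not called: S100a9 changed by 0.27, Mmp8 by 0.12, Camp by -0.06, Ngp by -0.11 and Ltf by -0.07. Of 8 hepatocyte markers 3 fell by 0.07 to 0.14, and of 4 adipocyte and pancreas markers 1 fell, Cela1 by 0.58 ± 0.082. Of 5 cholangiocyte and 7 lymphocyte markers none was called. The summed level, as log2 of the sum over a list, ran over the 16 arrays from 12.55 to 12.99 at dose 0 and from 12.36 to 12.93 at 150 mg/kg-day for endothelial markers, from 13.06 to 13.38 and from 12.78 to 13.20 for stellate markers, from 12.42 to 14.09 and from 12.74 to 13.98 for Kupffer markers, from 8.02 to 9.78 and from 8.25 to 12.94 for neutrophil markers, and from 17.32 to 17.40 and from 17.26 to 17.35 for hepatocyte markers. No marker was at 0. Their part in the changes of the 10 genes was not tested.

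Within groups, some of the genes moved together from array to array. For each of the 45 pairs, the deviations of the 96 arrays from their group means were correlated, with permutation p-values (100000 resamples within groups) adjusted over the 45; 7 pairs were past 0.05 by Pearson correlation and all 7 were above 0. Igfbp1 and Irs2, both repressed by insulin, had r = 0.591 and rho = 0.576 (both unadjusted permutation p = 1e-05, the smallest these resamples can give, adjusted 0.000225). Their r was 0.548 without the 2 arrays farthest from the median of Igfbp1, and between 0.496 and 0.659 in each sex and day of 24 arrays. In every pair these 2 arrays were picked by the gene named first, so outlying arrays of the other gene stayed in. Pck1 and Tat had r = 0.516 and rho = 0.527 (both p = 1e-05, adjusted 0.000225), r = 0.487 without the 2 farthest arrays, and 0.293 to 0.678 in each sex and day. Ppargc1a and Irs2 had r = 0.533 (permutation p = 5e-05, adjusted 0.00075) and rho = 0.476 (p = 2e-05, adjusted 0.0003), r = 0.437 without the 2 farthest, and 0.216 to 0.78 in each sex and day. These 3 relations had the same sign in every sex and day.

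The other 4 pairs were weaker or not even across the sexes and days. G6pc and Tat had r = 0.463 (permutation p = 0.0001, adjusted 0.00112) and rho = 0.416 (p = 0.00044, adjusted 0.0039), r = 0.419 without the 2 farthest arrays, with 0.666 and 0.796 on day 2 in females and males but -0.089 in females of day 7 and 0.495 in males of day 7. Pck1 and Foxo1 had r = 0.415 (p = 0.00013, adjusted 0.00117), rho = 0.384 (p = 0.00052, adjusted 0.0039) and r = 0.389 without the 2 farthest, at 0.0946 in females of day 7 and 0.479 to 0.514 elsewhere. Tat and Sik1 had r = 0.405 (p = 0.00099, adjusted 0.00742), rho = 0.429 (p = 0.00028, adjusted 0.00315) and r = 0.386 without the 2 farthest, at 0.324 to 0.547 in each sex and day. G6pc and Igfbp1 had r = 0.387 (p = 0.0022, adjusted 0.0141) and r = 0.325 without the 2 farthest, but rho = 0.29 did not pass (p = 0.0156, adjusted 0.101), and r was -0.209 in females of day 7 against 0.279 to 0.61 elsewhere. The values of 2 genes on an array share its RNA and its normalization, so these are relations across libraries. The pair of arrays that went against their labels is among the 96, and the correlations were not repeated without it.

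**Figure D5:**
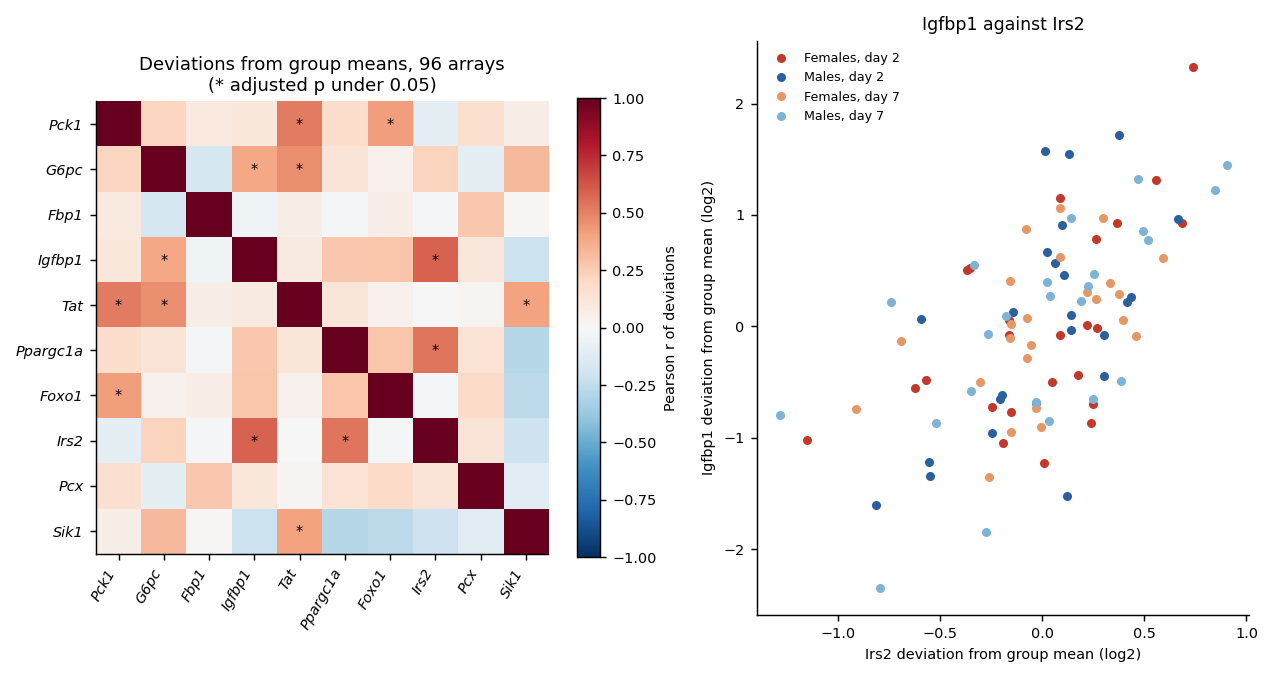
Left, Pearson correlation of the deviations of 96 arrays from their group means for each pair of the 10 genes (colour scale from -1 to 1; stars mark an adjusted p under 0.05). Right, the deviations of Igfbp1 against those of Irs2 (log2), 1 point per array, coloured by sex and day; the points rise together, with r = 0.591.

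For each gene, the 3 other genes whose 24 group means followed it most closely were listed among the brighter genes, those with a mean above the median gene's; r is given as a description over 24 group means that share arrays and doses. For G6pc they were Ppp1r3c (r = 0.949), Nr2f6 (0.936) and Dnmt3b (0.921). For Fbp1 they were Slc25a20 (r = 0.956), Dlg1 (0.923) and Plcg1 (0.921), and for Pcx they were Dlg1 (0.914), Cpq (0.905) and Fbp1 itself (0.891). For Pck1 they were Slc7a2 (r = 0.835), Foxo3 (0.82) and Bmp2 (0.812), and for Foxo1 they were Il6ra (0.894), Gin1 (0.873) and Angptl4 (0.848). Igfbp1 was followed by Ip6k2 (r = 0.795), Irf2bp2 (0.785) and Tab2 (0.781), and Irs2 by Jam2 (0.847), Arrdc3 (0.768) and Ift172 (0.747). Ppargc1a was followed by Mafg (r = 0.923), Pptc7 (0.886) and Sgms1 (0.875), Tat by Carmil1 (0.876), Safb (0.875) and Tmem258 (0.866), and Sik1 by Fscn1 (0.755), Vasp (0.736) and Pygb (0.729).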

How the data were processed

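The authors deposited log2 expression values for 45101 probe sets on 96 arrays, per the labels 1 per liver sample from CD-1 mice, with RNA extracted by Trizol; the normalization and its software are not given in the sources used here. Array medians ran from 5.35 to 5.44, and the number of arrays limits the precision. Probe sets were named by the platform annotation: 64 controls were set aside, 34945 had 1 symbol, 932 had several and 9160 had none. The probe set of highest mean stood for each of 18193 genes. Groups came from the sex, dose and day in the titles.

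A linear model with a mean for each of the 24 groups was fitted in limma 3.58.1 (R 4.3.3; 72 residual and 4.39 prior degrees of freedom; data.table, version 1.17.8). P-values are two-sided and, in each comparison, adjusted by Benjamini-Hochberg over the 18193 genes; a gene "rose" or "fell" only at an adjusted p under 0.05. Comparisons of doses within a sex and day share their 4 arrays at dose 0. No list was tested as a set. The fit was tested on simulated data. Promoter windows are RefSeq's (GRCm38.p6); figures were drawn with matplotlib 3.10.9 (numpy 2.4.6, pandas 2.3.3).

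The genes, lists and tests were chosen with earlier results of these data known. Of each list of glucose and fasting genes, those past the threshold in the average at 150 mg/kg-day are named, at most 4 by smallest adjusted p. Alternatives tried were 2 other scalings, a filter on dim genes, 3 other uses of probe sets, fits to 1 sex and day, array weights, a variance trend, a replicate block, leaving out each array in turn and, chosen after seeing the data, leaving out the pair of arrays that went against their labels.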

Additional observations from a re-analysis of the deposited data

Results flagged for a closer look

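For each of the 10 genes in each of the 24 groups of 4 arrays, the highest or lowest array was compared with the rest. In 17 of the 240 it lay apart, its gap to the nearest array, as a share of the group's range, being above Dixon's critical value for 4 arrays. Chance alone marks about 1 group in 20, so that a number of this size is no pattern in itself. All values are log2 expression. Pck1 read 13.28 on female replicate 3 at 1.5 mg/kg-day of day 2 (nearest array 12.99), 12.41 on male replicate 3 at 0 mg/kg-day of day 7 (nearest array 13.03), 12.14 on male replicate 2 at 0.15 mg/kg-day of day 7 (nearest array 13.09) and 11.66 on male replicate 3 at 75 mg/kg-day of day 7 (nearest array 12.91). G6pc read 9.78 on female replicate 1 at 75 mg/kg-day of day 2 (nearest array 11.37) and 11.41 on female replicate 4 at 0 mg/kg-day of day 7 (nearest array 11.18). Tat read 12.03 on female replicate 3 at 1.5 mg/kg-day of day 7 (nearest array 12.28) and 12.49 on male replicate 1 at 150 mg/kg-day of day 2 (nearest array 12.67). Ppargc1a read 6.93 on female replicate 1 at 150 mg/kg-day of day 7 (nearest array 7.50) and 5.67 on male replicate 4 at 0 mg/kg-day of day 7 (nearest array 7.48). Foxo1 read 9.62 on female replicate 2 at 0.15 mg/kg-day of day 2 (nearest array 9.23) and 9.05 on male replicate 3 at 15 mg/kg-day of day 7 (nearest array 9.43). Pcx read 11.70 on female replicate 2 at 0 mg/kg-day of day 2 (nearest array 11.83), 12.03 on female replicate 2 at 0.15 mg/kg-day of day 7 (nearest array 11.85) and 12.003 on male replicate 3 at 75 mg/kg-day of day 2 (nearest array 11.71). Sik1 read 6.78 on female replicate 1 at 15 mg/kg-day of day 7 (nearest array 6.17) and 5.79 on male replicate 3 at 0 mg/kg-day of day 2 (nearest array 6.38).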

How the results depend on the processing

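The settings other than leaving out 1 array keep every array, fit 1 sex and day alone or leave out the doubted pair. Under them, 554 of 574 log2 changes of the 10 genes kept their direction and their side of the threshold. Most comparisons called none of the 10 genes. Of 357 counts of called genes 343 stayed within 1.5 times, counts of 0 that stayed at 0 among them. Of counts of called list genes, 137 of 1862 moved by more, and 237 of 2432 when 1 array was left out. Of 49 counts over all genes 1 moved, to 681 with array weights against 445 in females of day 7 at 150 mg/kg-day. With each array centred on its median, 1 gene was called in females of day 2 at 150 mg/kg-day; with repeated quantile normalization 2 were called in females of day 7, and with dim genes left out 2 there at 150 and 1 at 75 mg/kg-day. With the mean of all probe sets of a gene, 1 was called in males of day 7 and 1 between the sexes at dose 0 of day 7, and Pck1 changed by -0.19 in females of day 7. With the probe set of highest variance, 1 was called in males of day 7, 2 for their trend, and 1 between the sexes at dose 0 on each day, and Pck1 reversed to 0.13 in males of day 2 (0.039 per dose step) and -0.73 in females of day 7. In fits of 1 sex and day, 1 was called in females of day 2 at 150 mg/kg-day and for the trend, and 2 in females of day 7 (Sik1 rose by 0.95, adjusted p = 0.0287). A variance trend gave 1 at 75 mg/kg-day in females of day 7. Sik1 in males of day 7, near 0, turned to 0.0048 with centring and 0.014 with quantile normalization; in the average it was called under quantile normalization (adjusted p = 0.0482) and array weights (0.0371). Ppargc1a was called lower in the average with the mean of its probe sets (-0.37, adjusted p = 0.0274). The causes were not tested. Every probe set was also tested alone, as the report gives.

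Leaving out 1 array gave 1 to 2 called genes in females of day 2 and 1 to 3 in males of day 2 at 150 mg/kg-day, 0 to 2 at 150 and 0 to 1 at 75 mg/kg-day in females of day 7, 1 to 2 in the average at 75, and for trends 1 to 3 on day 2 in each sex and 1 to 2 in males of day 7. Over all genes it gave 601 to 1049 calls in females of day 2 (994 with all arrays), 551 to 833 in males of day 2 (892), 244 to 402 in females of day 7 (445) and 310 to 617 in males of day 7 (553). Changes at 150 mg/kg-day that crossed 0 ran, in females of day 2, from -0.16 to 0.0038 for Foxo1 and from -0.025 to 0.14 for Tat; in females of day 7 from -0.25 to 0.27 for Igfbp1, from -0.25 to 0.0091 for Irs2 and from -0.081 to 0.25 for Tat; and in males from -0.33 to 0.17 for Ppargc1a on day 2 and from -0.23 to 0.17 for Sik1 on day 7. 

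Arrays share replicate numbers across doses. On day 2, deviations of same-numbered arrays had mean correlations of -0.00138 in females and 0.00941 in males. There 4 and 5 of 24 arrays went best with their own number. On day 7 the means were 0.0359 and 0.044, against -0.0116 and -0.0147 for other numbers, with 11 and 13 of 24 arrays. The numbers were not taken as a pairing, and whether same-numbered arrays of day 7 share their handling was not tested. The correlations of gene pairs were not adjusted for it. With the replicate number as a block, the counts were unchanged at 6 in the average and 2, 3, 1 and 0 in the single comparisons at 150 mg/kg-day. The signal of Irs2, Ppargc1a and Sik1 had means of 6.32 to 7.18, where the median gene had 6.46; what background leaves of it was not tested.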

Other observations

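Other genes followed the 10 genes within groups, from array to array, among them members of the lists such as Klf15, Tsc22d3, Sgk1, Crem, Slc7a2 and Lpin1. The following are Pearson correlations of deviations from group means over 96 arrays, among about 9087 brighter genes, given as a description with no test; this ranking was chosen after seeing the data. Igfbp1 went with Irf2bp2 (r = 0.766), Ip6k2 (0.764) and Trp53inp1 (0.709). It went opposite to Angptl8 (-0.70), a liver hormone that feeding induces, Pex26 (-0.631) and Cebpa (-0.60). Irs2 went with Irf2bp2 (0.701) and Klf6 (0.70), and opposite to Sertad1 (-0.612), Phf23 (-0.541) and Angptl8 (-0.538). Angptl8 itself changed by 0.26 ± 0.24 in the average at 150 mg/kg-day and was not called by limma (adjusted p = 0.526). Tat went with Noct (0.655), a rhythmic deadenylase-like protein, Klf15 (0.631), a fasting-responsive transcription factor, Slc25a51 (0.61) and Tsc22d3 (0.598). Sik1 went with Slc25a25 (0.573), Noct (0.549) and Sgk1 (0.549), and opposite to Arrdc3 (-0.545) and Klf9 (-0.465), which is on the glucocorticoid list. G6pc went with Bex3 (0.532), Tmcc1 (0.51), Crem (0.504), a cAMP-responsive factor, and Sgk1 (0.485). Pck1 went with N4bp2l1 (0.653) and Slc7a2 (0.607), and most opposite to it was Crtc3 (-0.557), which is on the list of cAMP signalling. Foxo1 went with Pptc7 (0.626), Ell2 (0.618), Lgr4 (0.61), Ulk1 (0.602) and Lpin1 (0.60). Ppargc1a went with Zbed6 (0.697), Pcx with Tfr2 (0.63) and Fbp1 with Rdh16 (0.465).

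At 75 mg/kg-day, averaged over both sexes and both days, 3.56% of all genes fell and 5.36% rose by limma. Of 15 other fasting-induced genes 4 fell: Fgf21 by 0.58 ± 0.12 on the log2 scale (SE), Acot1 by 0.73 ± 0.16, Plin2 by 0.24 ± 0.062 and Angptl4 by 0.52 ± 0.17. Without the pair of arrays that went against their labels Angptl4 was not called (-0.50 ± 0.17, adjusted p = 0.052) and Bdh1, an enzyme of ketone body metabolism, was (-0.13 ± 0.043, 0.0435). Of 20 genes of amino acid breakdown 4 also fell, Oat by 0.47 ± 0.13, Tdo2 by 0.15 ± 0.037, Bhmt by 0.14 ± 0.027 and Glud1 by 0.10 ± 0.035. Of 18 glycogen genes 4 rose, among them Stbd1 by 0.79 ± 0.11, Gbe1 by 0.32 ± 0.076 and Gyg by 0.26 ± 0.066, and 1 fell, Ppp1r3c by 0.82 ± 0.18; without the pair the same genes of both lists were called. In the same average 5 of 10 Kupffer cell markers rose, by 0.34 to 0.60 (0.36 to 0.60 without the pair); their part in these results was not tested.

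Some single arrays were the lowest or highest of their group for many of the 10 genes at once. Male replicate 3 at 0.15 mg/kg-day of day 2 was lowest for 7 of the 10, and female replicate 2 at 0.15 mg/kg-day of the same day was highest for 7. Among males of day 7, replicate 1 at dose 0 was highest for 8, replicate 4 at dose 0 was lowest for 6, and replicate 3 at 75 mg/kg-day was lowest for 6, with 11.66 for Pck1, 10.49 for G6pc and 7.06 for Igfbp1.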
